A study of Mus musculus with 6 samples.

Results

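The genes described here are a fixed list of mesothelial and of fibroblast or matrix genes, read as a measure of stromal cells in macrophage cultures from the mouse peritoneum. The list names 36 genes, and a gene was kept when its counts, summed over its transcript rows and over the 6 libraries, reached 30. Of the 36, 35 were in the deposited table of 24454 gene symbols and 27 were kept, 10 of 12 mesothelial and 17 of 24 fibroblast or matrix genes. Muc16, a mesothelial mucin gene, was not analysed here.

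The cells came from wild-type male C57BL6/J mice aged 6 to 8 weeks, and polyA-enriched RNA of the cultures was sequenced. SGA360+LPS cultures received 10 µM SGA360, which binds the aryl hydrocarbon receptor (AHR), for 1 h and then the bacterial endotoxin LPS at 10 ng/ml for 4 h. LPS cultures received the same LPS treatment, and vehicle cultures were kept in vehicle for 5 h. Each group has 2 libraries, and no label says that they are separate animals or cultures. The p-values therefore reflect the spread between libraries alone, which may be technical.

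Mesothelial cells form the epithelial lining of the peritoneum, carry keratins and the transcription factor WT1, and rest on a basement membrane. Fibroblasts beneath them secrete the fibrillar collagens, the beaded-filament collagen VI and small proteoglycans that make up the connective tissue. Peritoneal washes can carry cells of both kinds into a macrophage culture. Collagen chains are encoded by separate genes and assemble into trimers, so that a collagen such as type I or type V needs the products of more than 1 gene.

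Total counts ran from 7726973 to 9529817 per library. Vehicle replicate 1 stood apart: it detected 10001 genes, where the other 5 libraries detected 12282 to 12643. Reads of Rn45s, a ribosomal RNA gene, were 4.92% of its total and 0.220% to 0.684% of the others. Several macrophage genes were abundant in every library, with the lysozyme gene Lyz2 at 18255 to 22238 CPM (counts per 1000000 counts of a library, with library sizes scaled by the TMM method) and the growth factor receptor gene Csf1r at 593 to 817 CPM. A set of 13 macrophage marker genes summed to 22741 and 26075 CPM with SGA360+LPS, 23565 and 27174 CPM with LPS, and 21809 and 23782 CPM in vehicle. Lyz2 was the largest part of this sum in every library. Other markers of the set were low, with Timd4 at 2.08 to 8.97 CPM. Ptprc, at 1.35 to 3.80 CPM, and Itgam, at 0 in all libraries, have several transcript rows. Epithelial markers other than mesothelial summed to 0.448 to 3.02 CPM, with Epcam at 1 or 2 counts per library.

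The table lists RefSeq transcripts, and genes with several transcript rows held few reads in it: 5639 such symbols held 1.87% of all counts. All 24 members with 1 row were kept, against 3 of 11 members with several rows. The basement membrane chain Col4a1, the matrix glycoprotein genes Sparc and Postn, the growth factor receptor gene Pdgfrb and the membrane glycoprotein gene Gpm6a had 0 counts in all 6 libraries and several rows each. Serpinh1, encoding the collagen chaperone HSP47, had 22 counts in all, Fbln2 6 and Pdpn 2, also with several rows. The handling of reads shared by several transcripts was not given in the sources used here, and no statement is made on these 8 genes. Just above the minimum lay Pdgfra with 31 counts, Pi16 with 32 and Mfap5 with 34, and just below it Serpinh1. These 3 kept genes were too low for the test, which left 24 tested members, 10 mesothelial and 14 fibroblast or matrix genes.

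The 250 bases before the annotated start are shown for 3 members that changed, in both directions: Lrrn4 and Krt7, which fell, and Col5a1, which rose. Upk1b, with a log2 fold change with LPS of −0.66 against −0.60 for Krt7, is not shown. The sequences are from RefSeq on the GRCm38.p6 build, read 5′ to 3′ on the strand of the gene. They cover chr2:132880863-132881112 on the minus strand for Lrrn4, chr15:101412153-101412402 on the plus strand for Krt7 and chr2:27886175-27886424 on the plus strand for Col5a1. Capitals mark the TEAD motif GGAATG, searched on both strands along with the AP-1 motif TGANTCA and the WT1 motif GCGTGGGAG.
Lrrn4: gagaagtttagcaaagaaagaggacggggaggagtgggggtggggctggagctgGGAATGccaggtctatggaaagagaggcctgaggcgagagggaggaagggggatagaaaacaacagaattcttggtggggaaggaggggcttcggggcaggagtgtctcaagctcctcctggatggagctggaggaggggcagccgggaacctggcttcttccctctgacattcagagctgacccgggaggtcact
Krt7: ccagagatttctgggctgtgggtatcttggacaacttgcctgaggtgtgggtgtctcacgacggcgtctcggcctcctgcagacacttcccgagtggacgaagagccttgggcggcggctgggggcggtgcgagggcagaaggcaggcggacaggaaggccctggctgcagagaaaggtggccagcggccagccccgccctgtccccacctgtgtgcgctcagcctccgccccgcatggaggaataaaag
Col5a1: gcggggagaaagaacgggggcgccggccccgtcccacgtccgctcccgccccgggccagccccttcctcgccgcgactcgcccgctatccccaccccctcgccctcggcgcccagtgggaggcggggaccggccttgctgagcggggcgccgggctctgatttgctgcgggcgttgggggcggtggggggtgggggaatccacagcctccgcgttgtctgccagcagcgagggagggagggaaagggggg
The Lrrn4 window held 1 TEAD motif, from 196 to 191 bases before the start on the plus strand of the gene, and no match to the other motifs. No match to any of the 3 motifs was found in the Krt7 and Col5a1 windows. The G and C share was 59.2% for Lrrn4, 66.0% for Krt7 and 76.4% for Col5a1, against a median of 52.4% over 32851 promoters of the same length. Of 19 promoters found for 17 of the kept members, 5 held the TEAD motif (Col3a1, Col6a2, Igfbp5, Lrrn4 and Upk3b), while 12.6% of all promoters did. The AP-1 motif lay in the promoter of Col6a1 alone among them, against 6.75% of all promoters, and the WT1 motif in 0 of the 19, against 0.405%. These are matches of letters only.

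In the mm10 build Lrrn4 (NM_177303) occupies chromosome 2 from 132868516 to 132880862, minus strand, and Col5a1 (NM_015734) chromosome 2 from 27886425 to 28039510 on the plus strand. Krt7 (NM_033073) lies on chromosome 15 from 101412403 to 101427806, plus strand. Upk1b (NM_178924) is on chromosome 16 from 38773184 to 38800203, minus strand, and Upk3b (NM_175309) on chromosome 5 from 136038496 to 136044993, plus strand. Col3a1 (NM_009930) spans chromosome 1 from 45311538 to 45349706, plus strand, with Col5a2 (NM_007737) on the same chromosome from 45374331 to 45503282, minus strand. Col6a1 (NM_009933) and Col6a2 (NM_146007) are neighbours on the minus strand of chromosome 10, from 76708792 to 76726044 and from 76595756 to 76623404. Fstl1 (NM_008047) spans chromosome 16 from 37777055 to 37836516, plus strand, and Col4a2 (NM_009932) chromosome 8 from 11312805 to 11449287, plus strand. All of them code for proteins, and reads were counted per transcript, so exon, intron or UTR positions are not resolved. The starts of Col4a2 and Col4a1 overlap by 22 bases on opposite strands, and noncoding genes on the opposite strand overlap Col4a2 (Gm15419) and Col5a1 (Gm13372, 2810430I11Rik). The strand setting was not given in the sources used here; reads from these partners cannot be told apart.

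Collagen type I was the most abundant part of the list. Kept members took 0.609% to 0.816% of all counts of a library, and Col1a1 and Col1a2, encoding the 2 chains of the main collagen of connective tissue, made up 56.0% to 61.5% of that. Per kb of exon Col1a2 averaged 399 and Col1a1 334 CPM per kb over the 6 libraries, ranks 199 and 234 of 8520 tested genes with 1 transcript row. On the same scale the macrophage genes Csf1r and Adgre1 averaged 171 and 300.0, Spi1 456, Cd14 520.0 and Lyz2 18879 CPM per kb. Col3a1 followed with 132, then the proteoglycan gene Bgn with 91.7, Col6a1 with 75.6 and Col6a2 with 74.0 CPM per kb. The highest mesothelial genes were lower than these, with Wt1 at 34.7, Lrrn4 at 31.8, Upk1b at 26.4, Upk3b at 26.1 and Krt8 at 25.0 CPM per kb. Of the other fibroblast or matrix genes, Fstl1 at 63.7 and Col5a2 at 35.5 CPM per kb lay above Wt1. The rest lay among or below the mesothelial genes, such as Col5a1 at 29.0, Col4a2 at 10.7 and Lum at 4.34 CPM per kb. Differences between neighbours in this order were not tested.

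**Figure D1:**
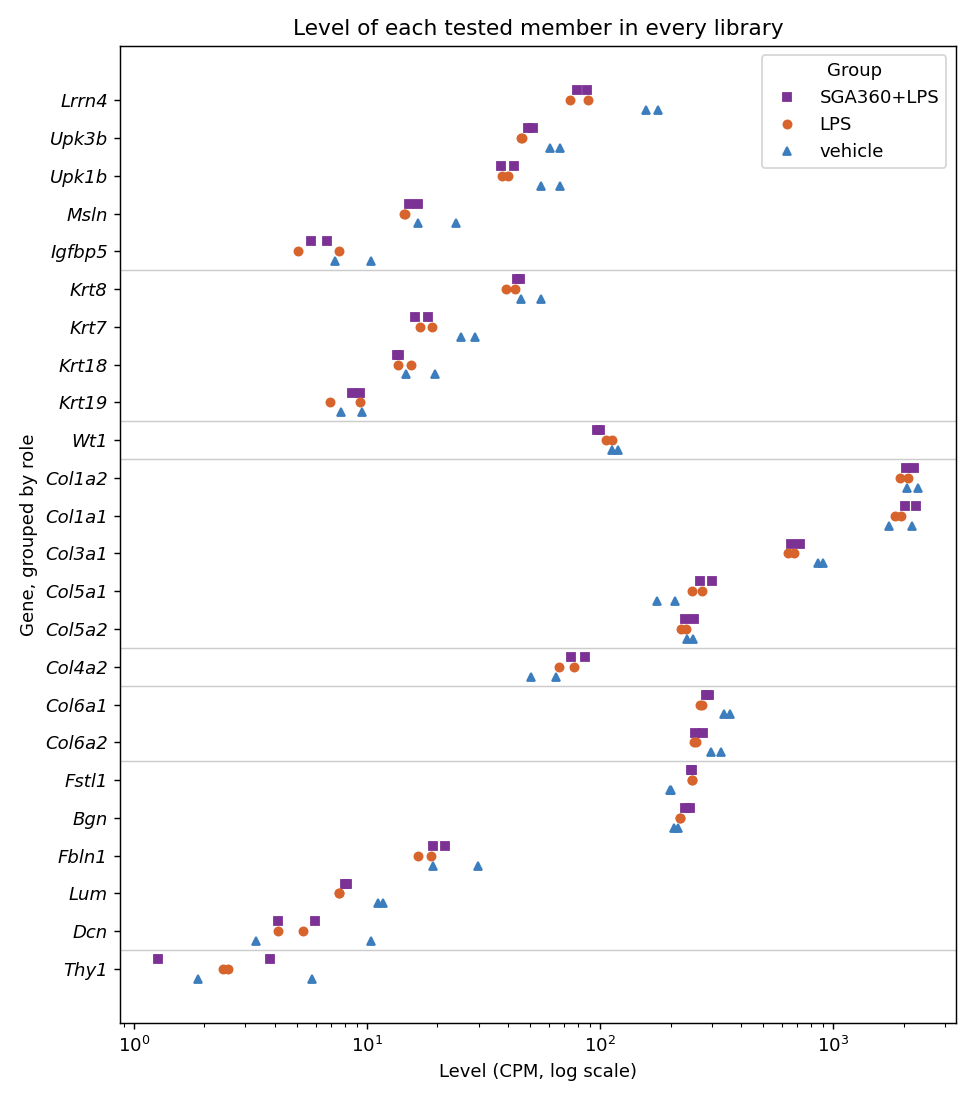
Level in CPM (log scale) of the 24 tested members in every library, with genes grouped by role and 1 point per library (squares SGA360+LPS, circles LPS, triangles vehicle). Vehicle libraries lie to the right for Lrrn4 (157 and 177 CPM) and to the left for Col5a1 (175 and 208 CPM), and those of Dcn and Thy1 lie far apart.

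With LPS the mesothelial genes Lrrn4, Upk1b, Upk3b and Krt7 and the collagen genes Col3a1, Col6a1 and Col6a2 fell against vehicle, and Col5a1 and Fstl1 rose. These 7 falls and 2 rises among the 24 tested members were called by edgeR's quasi-likelihood test at a Benjamini-Hochberg adjusted p under 0.05 over all genes tested. This share, 37.5%, is near the background: 36.4% of all 9389 genes tested were called, 19.4% as rises and 17% as falls. The median log2 fold change was −0.33 over the members and −0.01 over all genes tested. For 17 of the 24 members the LPS and vehicle libraries did not overlap, where 65.9% of all genes tested did not. Of the 10 tested mesothelial members 4 fell and 0 rose, with a median of −0.48, and of the 14 fibroblast or matrix members 3 fell and 2 rose, with a median of −0.21. In these bulk cultures fewer cells of a type and less RNA per cell cannot be told apart.

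Among the surface genes of the mesothelium, Lrrn4, which encodes a leucine-rich repeat membrane protein, moved furthest. It stood at 79.7 and 87.8 CPM with SGA360+LPS, 74.2 and 88.2 CPM with LPS, and 177 and 157 CPM in vehicle. Both vehicle libraries were above all 4 libraries with LPS. The log2 fold change of LPS over vehicle was −1.04 (SE 0.11; edgeR adjusted p = 3.61e-05) and stayed between −1.15 and −0.90 with any 1 library left out. The uroplakin gene Upk1b, encoding a tetraspanin of epithelial membrane plaques, had 37.5 and 42.7 CPM with SGA360+LPS, 37.8 and 40.0 CPM with LPS, and 67.3 and 55.8 CPM in vehicle. It fell with LPS by 0.66 on the log2 scale (SE 0.13; edgeR adjusted p = 0.00279), and the groups did not overlap.

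Upk3b, which encodes a uroplakin that marks mesothelium, had 49.0 and 51.4 CPM with SGA360+LPS, 46.2 and 45.8 CPM with LPS, and 66.9 and 60.7 CPM in vehicle, again without overlap. Its log2 fold change with LPS was −0.47 (SE 0.11; edgeR adjusted p = 0.00577), and the call was lost without LPS replicate 1 (edgeR adjusted p = 0.0573) or 2 (0.0658). Msln, encoding the surface glycoprotein mesothelin, was at 15.1 and 16.6 CPM with SGA360+LPS, 14.5 and 14.3 CPM with LPS, and 23.9 and 16.4 CPM in vehicle. The vehicle libraries differed from each other, and Msln was not called at −0.48 (SE 0.20; edgeR adjusted p = 0.0905). Leaving out vehicle replicate 1 gave −0.17 (edgeR adjusted p = 0.434), and leaving out vehicle replicate 2 gave −0.71 (0.00117). Igfbp5, encoding a secreted binding protein for insulin-like growth factors, ranged from 5.03 to 10.4 CPM and was not called (−0.50, SE 0.31), and gave −0.73 without vehicle replicate 1 (edgeR adjusted p = 0.0326), −0.21 without vehicle replicate 2 (0.549) and −0.21 without LPS replicate 2 (0.769).

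Of the 4 keratin genes, which encode intermediate filament proteins of epithelia, 1 fell and 3 were not called, and differences between them were not tested. Krt7 had 16.0 and 18.3 CPM with SGA360+LPS, 19.0 and 16.8 CPM with LPS, and 29.1 and 25.2 CPM in vehicle. All 4 libraries with LPS lay below both vehicle libraries, and Krt7 fell with LPS by 0.60 (log2; SE 0.16; edgeR adjusted p = 0.0151). The call was lost without LPS replicate 1 (edgeR adjusted p = 0.0603) or 2 (0.159). Krt8, the type II partner of Krt18 in simple epithelia, had 45.1 and 43.8 CPM with SGA360+LPS, 43.0 and 39.2 CPM with LPS, and 45.5 and 55.5 CPM in vehicle. It was not called (−0.30, SE 0.13; edgeR adjusted p = 0.0961), and was at −0.42 without vehicle replicate 1 (edgeR adjusted p = 0.00751) and at −0.13 without vehicle replicate 2 (0.36). Krt18 stood at −0.24 (SE 0.19) and Krt19 at −0.09 (SE 0.26), and neither was called. Krt19, at 6.89 to 9.50 CPM, has 2 transcript rows and changed sign without LPS replicate 2 or vehicle replicate 1.

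Wt1, the transcription factor that marks the mesothelial lineage, was at 97.0 and 99.7 CPM with SGA360+LPS, 112 and 106 CPM with LPS, and 112 and 119 CPM in vehicle. LPS and vehicle libraries lay close together, and Wt1 was not called (log2 fold change −0.09, SE 0.08; edgeR adjusted p = 0.459). The ratio of Lrrn4 to Wt1, in counts per kb within a library, does not depend on library scaling. It was 0.733 and 0.785 with SGA360+LPS, 0.591 and 0.745 with LPS, and 1.41 and 1.18 in vehicle. Lrrn4 was thus lower relative to Wt1 in all 4 libraries with LPS than in either vehicle library. This pair was chosen after its values were seen, and with 2 libraries against 2 an exact permutation test cannot go below p = 0.333, the value it gave here (two-sided).

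The fibrillar collagens split. Col1a1 had 2253 and 2023 CPM with SGA360+LPS, 1951 and 1839.8 CPM with LPS, and 1735 and 2172 CPM in vehicle. Col1a2 had 2223 and 2045 CPM with SGA360+LPS, 2082 and 1924 CPM with LPS, and 2067 and 2295 CPM in vehicle. The groups overlapped for both genes, and neither was called (Col1a1 −0.04, SE 0.10; Col1a2 −0.12, SE 0.07). Col3a1, the chain of collagen III in soft connective tissue, had 717 and 656 CPM with SGA360+LPS, 679 and 640.5 CPM with LPS, and 856 and 898 CPM in vehicle. It fell with LPS by 0.41 on the log2 scale (SE 0.07; edgeR adjusted p = 0.0011), with no overlap.

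The chains of collagen V, a minor fibril component that regulates fibril diameter, diverged. Col5a1 had 302 and 267 CPM with SGA360+LPS, 272 and 248 CPM with LPS, and 175 and 208 CPM in vehicle. It rose with LPS by 0.44 (log2; SE 0.10; edgeR adjusted p = 0.00616), and all 4 libraries with LPS were above both vehicle libraries. Its partner Col5a2 had 251 and 230.3 CPM with SGA360+LPS, 233 and 222 CPM with LPS, and 236 and 249 CPM in vehicle, and was not called (−0.09, SE 0.07; edgeR adjusted p = 0.368). The ratio of Col5a1 to Col5a2 in counts per kb was 0.949 and 0.912 with SGA360+LPS, 0.920 and 0.883 with LPS, and 0.586 and 0.660 in vehicle. These and the pairs below were also chosen after their values were seen. The ratio was higher in every library with LPS than in either vehicle library, again with p = 0.333, the smallest the exact permutation test allows. For Col1a1 over Col1a2 the ratio ran from 0.740 to 0.893 and for Col6a1 over Col6a2 from 0.962 to 1.13 over the 6 libraries, and LPS and vehicle overlapped in both. With SGA360+LPS, Col1a1 over Col1a2 was 0.893 and 0.872, above both vehicle libraries (0.740 and 0.835) and both LPS libraries (0.826 and 0.843). Col3a1 over Col1a1 was lower in all 4 libraries with LPS (0.339 to 0.371) than in vehicle (0.525 and 0.440). For that pair SGA360+LPS (0.339 and 0.345) also lay below LPS (0.371 and 0.371). For Col5a1 over Col5a2 the SGA360+LPS and LPS libraries overlapped.

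**Figure D2:**
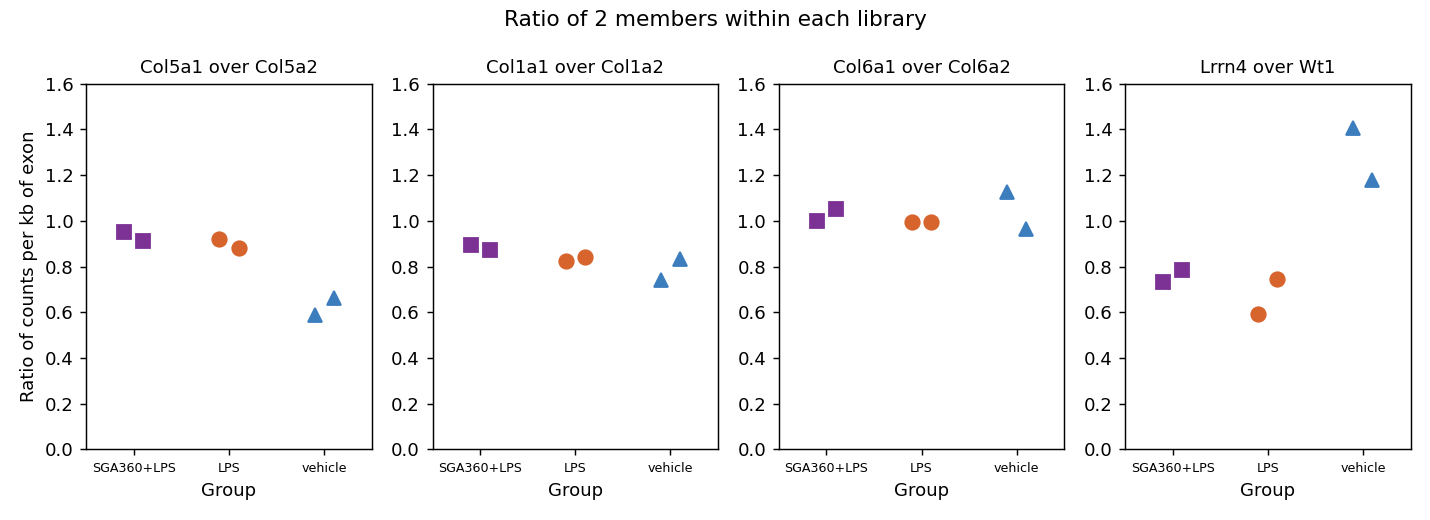
Ratio of 2 members within each library, in counts per kb of exon (linear axis from 0), by group with 1 point per library. Vehicle libraries stand below the others for Col5a1 over Col5a2 (0.586 and 0.660) and above them for Lrrn4 over Wt1 (1.41 and 1.18), while the collagen I and VI pairs overlap between LPS and vehicle.

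Collagen VI, which forms beaded microfibrils around cells, was lower. Col6a1 had 293 and 285 CPM with SGA360+LPS, 269 and 273 CPM with LPS, and 359 and 339 CPM in vehicle, and fell with LPS by 0.37 (log2; SE 0.07; edgeR adjusted p = 0.00151). Col6a2 had 275 and 254 CPM with SGA360+LPS, 253 and 257 CPM with LPS, and 298 and 330.4 CPM in vehicle, and fell by 0.30 (SE 0.08; edgeR adjusted p = 0.0108). Neither gene overlapped between LPS and vehicle, though the call of Col6a2 was lost without LPS replicate 1 (edgeR adjusted p = 0.101) or 2 (0.0793). The basement membrane chain Col4a2 had 85.8 and 74.8 CPM with SGA360+LPS, 77.0 and 66.6 CPM with LPS, and 50.4 and 64.3 CPM in vehicle. Its log2 fold change with LPS was 0.32 (SE 0.14; edgeR adjusted p = 0.0953), short of the threshold. It was 0.17 without vehicle replicate 1 (edgeR adjusted p = 0.256) and 0.52 without vehicle replicate 2 (0.00181). With no filter on low counts Col4a2 was called at 0.35 (edgeR adjusted p = 0.0143).

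Of the matrix-associated proteins, Fstl1, encoding a secreted follistatin-related glycoprotein of mesenchymal cells, had the least spread. It was at 246 and 245 CPM with SGA360+LPS, 247 and 247 CPM with LPS, and 198 and 201 CPM in vehicle. The rise with LPS was 0.31 on the log2 scale (SE 0.06; edgeR adjusted p = 0.00401), between 0.32 and 0.33 with any 1 library left out. Bgn, encoding the small proteoglycan biglycan, had 231 and 243 CPM with SGA360+LPS, 221 and 219.8 CPM with LPS, and 207 and 216 CPM in vehicle, and was not called with LPS (0.06, SE 0.07). Lum, encoding the collagen-binding proteoglycan lumican, averaged 7.56 CPM with LPS and 11.4 CPM in vehicle and stood just short of the threshold (−0.60, SE 0.22; edgeR adjusted p = 0.0565). It was called at −0.54 without vehicle replicate 1 (edgeR adjusted p = 0.0486) and at −0.62 without vehicle replicate 2 (0.0199).

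The low fibroblast genes Dcn, Thy1 and Fbln1 had their highest level in vehicle replicate 1, as had Lum and Pi16. Dcn, encoding the proteoglycan decorin, has 2 transcript rows and is uncertain, and it had 5.97 and 4.14 CPM with SGA360+LPS, 5.32 and 4.15 CPM with LPS, and 10.4 and 3.33 CPM in vehicle. Thy1, encoding a surface protein of fibroblasts and of T cells, had 1.27 and 3.81 CPM with SGA360+LPS, 2.39 and 2.51 CPM with LPS, and 5.81 and 1.87 CPM in vehicle. Fbln1, encoding the matrix protein fibulin 1, had 19.0 and 21.6 CPM with SGA360+LPS, 18.8 and 16.5 CPM with LPS, and 29.8 and 19.1 CPM in vehicle. None of the 3 was called, and the LPS libraries lay between the vehicle libraries for Dcn and Thy1. Without vehicle replicate 2, Dcn (−1.13; edgeR adjusted p = 0.00228), Fbln1 (−0.75; 0.000648) and Thy1 (−1.22; 0.023) were called as lower with LPS. Without vehicle replicate 1 none of the 3 was called, with Dcn at 0.51, Thy1 at 0.41 and Fbln1 at −0.11.

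Pi16, a gene of fibroblasts around vessels and in adventitia, had 4 and 3 counts with SGA360+LPS, 3 and 1 with LPS, and 17 and 4 in vehicle. Mfap5, encoding a microfibril protein, had 6 and 6 counts with SGA360+LPS, 5 and 4 with LPS, and 0 and 13 in vehicle. Pdgfra, the receptor gene that marks fibroblasts, had 8 and 3 counts with SGA360+LPS, 1 and 13 with LPS, and 0 and 6 in vehicle. Pi16 was thus high in the vehicle library in which Mfap5 and Pdgfra had no count, and 3 counts in a library is the limit that a count of 0 allows (counting error only). A list of 6 T cell markers in the table also summed highest in vehicle replicate 1, at 7.93 CPM, against 2.91 CPM in vehicle replicate 2 and 2.08 to 3.06 CPM in the other 4 libraries. Of these, Cd8a and Lck were at 0 in all libraries, both with several transcript rows. Their part in the level of Thy1 was not tested.

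**Figure D3:**
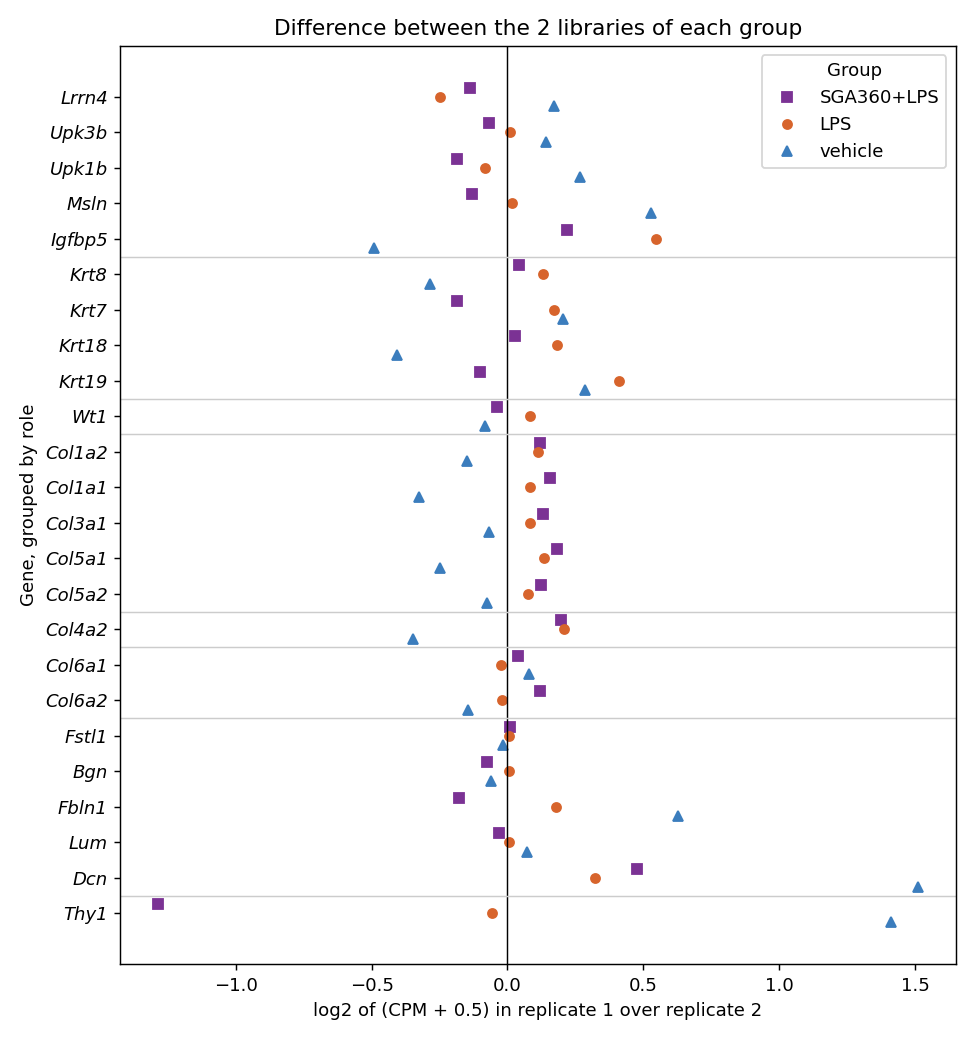
Difference between the 2 libraries of a group for each tested member, as log2 of (CPM + 0.5) in replicate 1 over replicate 2, with squares for SGA360+LPS, circles for LPS and triangles for vehicle. Points far from 0 are mostly those of vehicle, with Dcn at 1.51 and Thy1 at 1.41, and the collagen genes other than Col6a1 lie below 0 in vehicle.

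The spread within the vehicle pair was wider than within the other groups. The median absolute difference between replicates was 0.13 with SGA360+LPS, 0.08 with LPS and 0.23 in vehicle over the 24 members (log2 of CPM + 0.5). It was 0.12, 0.12 and 0.22 over all genes tested. A difference of more than 0.5 was found for 4 of 24 members in vehicle, namely Msln, Fbln1, Dcn and Thy1, each higher in replicate 1, and 23.2% of all genes tested passed that bound in vehicle. For LPS against vehicle the calls made with all libraries were kept without vehicle replicate 1 and without vehicle replicate 2. Each of these fits leaves 1 vehicle library and tested 26 members, where 24 were tested with all libraries. Without vehicle replicate 2 the added members included Pdgfra (5.85) and Pi16 (−2.89), with 31 and 32 counts in all, so these fits cover different members. Over all genes the calls numbered 3998 and 5494 in these fits, against 3413 with all libraries.

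In SGA360+LPS against vehicle, which shares the vehicle libraries with the comparison above, 7 members fell and 3 rose of 24. The share of 41.7% stands beside 33.1% of all 9389 genes tested. The 7 that fell were Lrrn4 (−0.99, SE 0.11; edgeR adjusted p = 5.23e-05), Upk1b (−0.62, SE 0.13), Krt7 (−0.66, SE 0.16), Upk3b (−0.34, SE 0.10), Col3a1 (−0.35, SE 0.07), Col6a1 (−0.27, SE 0.06) and Col6a2 (−0.25, SE 0.08). Col5a1 rose by 0.57 (SE 0.10; edgeR adjusted p = 0.00142), Col4a2 by 0.48 (SE 0.14; 0.0203) and Fstl1 by 0.30 (SE 0.06; 0.00527). All 9 members called in LPS against vehicle were called here too. For 16 members SGA360+LPS and vehicle libraries did not overlap, where 64.9% of all genes tested did not. Mesothelial genes had a median of −0.34 and fibroblast or matrix genes of −0.14, where all genes tested had −0.01. Wt1 stood at −0.23 (SE 0.08; edgeR adjusted p = 0.0567), and both SGA360+LPS libraries lay below both vehicle libraries.

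Fewer of these calls held when a library was left out. Lrrn4, Col5a1 and Fstl1 kept theirs with any 1 of the 6 libraries left out. Without SGA360+LPS replicate 1 the calls of Upk3b (edgeR adjusted p = 0.248), Upk1b (0.0786), Krt7 (0.129), Col4a2 (0.16), Col6a1 (0.0833) and Col6a2 (0.0911) were lost, leaving 4. Without SGA360+LPS replicate 2 those of Upk3b (0.147), Col3a1 (0.0661), Col6a1 (0.128) and Col6a2 (0.306) were lost, leaving 6. Upk3b was also lost without vehicle replicate 1 (0.0692), and Col6a2 without vehicle replicate 2 (0.101). Leaving out LPS replicate 1 or 2, which share the model but not the comparison, cost the calls of Upk3b (0.0778 and 0.0774) and Col6a2 (0.0742 and 0.0744). Without vehicle replicate 1, Krt8 (−0.30), Krt18 (−0.51), Wt1 (−0.25) and Igfbp5 (−0.73) were called as lower, and 13 members were called in all. With vehicle replicate 2 left out the members tested included the low gene Pi16 (−2.13), which had 32 counts in all and was not tested with all libraries. Over all genes these fits called 3572 and 5315, against 3107 with all libraries.

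**Figure D4:**
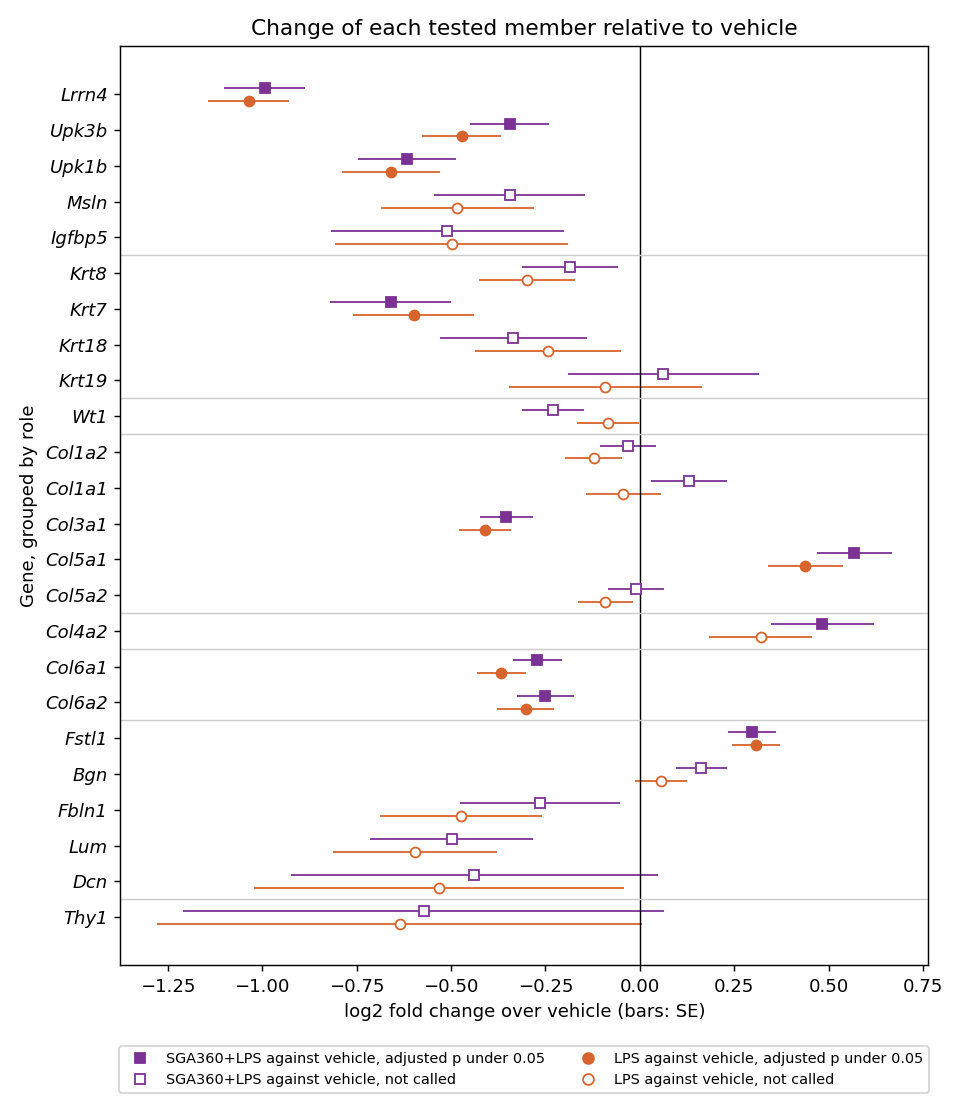
The log2 fold change over vehicle of each tested member, with SGA360+LPS as squares and LPS as circles, bars for the SE, and filled points for an edgeR adjusted p under 0.05. Lrrn4 lies near −1 in both comparisons, Col5a1 at 0.57 and 0.44, and the low genes Dcn and Thy1 have the widest bars.

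The comparison of SGA360+LPS with LPS asks what the AHR ligand added under the endotoxin. No tested member was called, and the 0 of 24 stands beside 7 of all 9389 genes tested, or 0.0746%. Of the 24, 0 had an unadjusted p under 0.05 in edgeR, against 2.94% of all genes tested, and DESeq2 and limma-voom also called 0. Log2 fold changes ran from −0.14 for Wt1 (SE 0.08) to 0.21 for Fbln1 (SE 0.22), with a median of 0.09 over the members and 0.00 over all genes tested. For 10 of the 24 members the groups did not overlap, 8 with SGA360+LPS higher and 2 with it lower, where 39.5% of all genes tested did not overlap. For Wt1 both SGA360+LPS libraries were below both LPS libraries. No solvent pretreatment is named in the labels of the LPS cultures, so a difference in solvent or handling cannot be told apart from SGA360.

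The 10 kept mesothelial genes summed to 368 and 389 CPM with SGA360+LPS, 379 and 376 CPM with LPS, and 553 and 527 CPM in vehicle. Vehicle libraries were above all others, and the group means were 0.701 times vehicle with SGA360+LPS and 0.699 times vehicle with LPS. Without Lrrn4, which had the highest mean CPM of them over the 6 libraries but lay below Wt1 in both groups with LPS, the log2 ratio of LPS to vehicle was −0.33 in place of −0.52. The 17 fibroblast or matrix genes summed to 6914 and 6361 CPM with SGA360+LPS, 6319.6 and 5970.1 CPM with LPS, and 6242 and 7010.1 CPM in vehicle. The groups overlapped between SGA360+LPS and vehicle and between LPS and vehicle, while both SGA360+LPS libraries lay above both LPS libraries. Leaving out Col1a1 and Col1a2, the other 15 summed to 2438 and 2293 CPM with SGA360+LPS, 2287 and 2206 CPM with LPS, and 2440.0 and 2544 CPM in vehicle. Both vehicle libraries were thus above the other 4, of which the highest had 2438 CPM. Here too the SGA360+LPS libraries lay above the LPS libraries, by a narrow margin (2293 against 2287 CPM). These differences between sums were not tested.

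**Figure D5:**
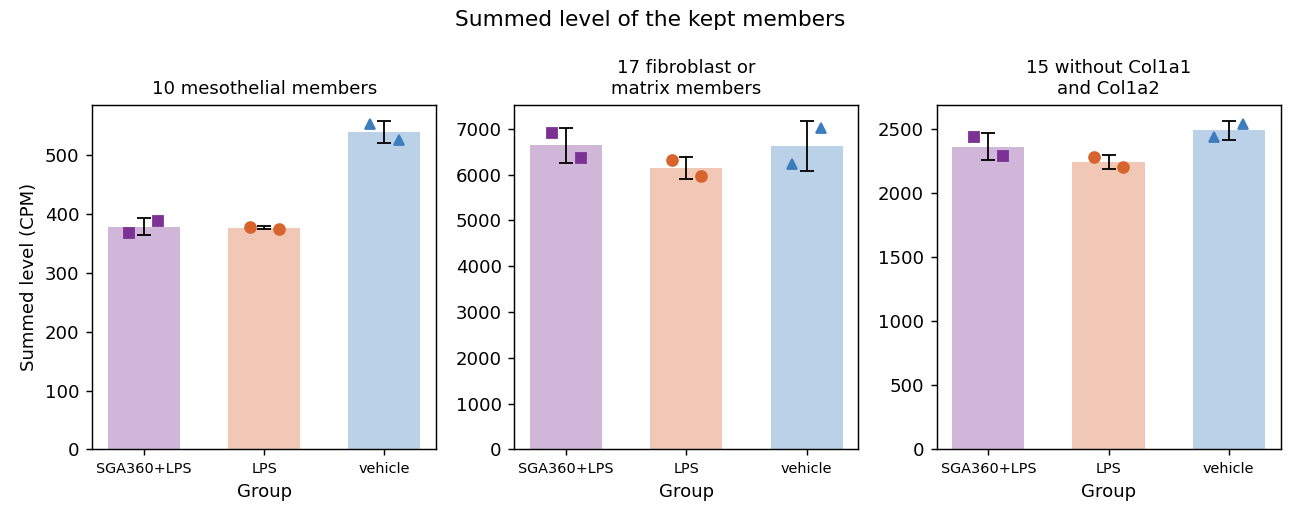
Summed CPM of the 10 mesothelial members, of the 17 fibroblast or matrix members, and of 15 of these without Col1a1 and Col1a2, by group. Bars are means of 2 libraries with the SD, points are libraries, and vehicle stands above the rest in the mesothelial panel (553 and 527 CPM) and, by a narrow margin, in the panel without collagen I (2440.0 and 2544 CPM).

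Other mesothelial genes, from a companion list of 15, also included falls. Of 7 tested, 3 fell and 0 rose with LPS (median log2 fold change −0.51), and 4 fell and 0 rose with SGA360+LPS, both against vehicle. Over all genes tested 36.4% were called with LPS (17% as falls) and 33.1% with SGA360+LPS (15.2% as falls), and none of the list counts here and below was tested against these shares. Bnc1, encoding a zinc finger transcription factor of epithelia, had 31.2 and 33.3 CPM with SGA360+LPS, 37.2 and 34.8 CPM with LPS, and 59.0 and 60.6 CPM in vehicle (LPS over vehicle −0.73, SE 0.11; edgeR adjusted p = 0.000558). Cldn15, a tight junction gene, averaged 1.22 CPM with LPS and 4.04 CPM in vehicle (−1.73, SE 0.56; edgeR adjusted p = 0.0352). Crip1, encoding a small LIM-domain protein that other cells also express, averaged 248 CPM with LPS and 352 CPM in vehicle (−0.51, SE 0.08; edgeR adjusted p = 0.000525). Efemp1, encoding the matrix protein fibulin 3, was called with SGA360+LPS alone (−0.56, SE 0.17; edgeR adjusted p = 0.0274), and the difference between the comparisons was not tested for it.

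Among 25 other fibroblast and matrix genes, 17 were tested, and 2 rose and 3 fell with LPS (median −0.27), while 2 rose and 2 fell with SGA360+LPS, beside 36.4% and 33.1% of all genes called. Fbn1, encoding the microfibril protein fibrillin 1, averaged 183 CPM with LPS and 113 CPM in vehicle, a rise of 0.69 (SE 0.08; edgeR adjusted p = 7.77e-05). Fn1, encoding fibronectin, rose by 0.90 (SE 0.22; edgeR adjusted p = 0.0102), but has several transcript rows and is uncertain. Ccdc80, a secreted matrix protein gene, fell by 0.36 (SE 0.07) and Pcolce, which enhances procollagen cleavage, by 0.36 (SE 0.11). Of 10 tested basement membrane genes 4 rose and 1 fell with LPS (median 0.20), beside 19.4% of all genes as rises and 17% as falls. Agrn, encoding the heparan sulfate proteoglycan agrin, averaged 114 CPM with LPS and 28.7 CPM in vehicle (1.99, SE 0.10; edgeR adjusted p = 1.18e-07). The laminin chain genes Lama5 (0.60, SE 0.14) and Lama4 (0.51, SE 0.10) rose, and Nid2, encoding nidogen 2, fell by 0.51 (SE 0.18).

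Enzymes that process collagen were mixed, with 1 rise and 4 falls with LPS among 11 tested (median −0.10), beside 36.4% of all genes called and 17% as falls. Mmp14, encoding a membrane-bound collagenase that macrophages also make, averaged 1852 CPM with LPS and 551 CPM in vehicle (1.75, SE 0.06; edgeR adjusted p = 9.90e-09). The lysyl hydroxylase gene Plod1 fell by 0.76 (SE 0.08; edgeR adjusted p = 4.29e-05) and the lysyl oxidase family gene Loxl3 by 0.93 (SE 0.16; 0.00132). In the list of stromal growth factors and chemokines 3 of 11 tested genes rose and 4 fell with LPS, beside the same 36.4%. Has1, encoding a hyaluronan synthase, had 25 and 30 counts with SGA360+LPS, 18 and 30 with LPS, and 0 and 3 in vehicle. The lymphoid chemokine gene Cxcl13 had 103 and 123 counts with SGA360+LPS, 95 and 107 with LPS, and 0 and 29 in vehicle (LPS over vehicle 2.96, SE 0.68; edgeR adjusted p = 0.00692). Cxcl12, a chemokine gene of stromal cells, averaged 21.9 CPM with LPS and 33.7 CPM in vehicle (−0.62, SE 0.13; edgeR adjusted p = 0.00478), but has 3 transcript rows and is uncertain.

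Contractile genes showed 1 rise and 0 falls with LPS among 8 tested, beside 36.4% of all genes called. The rise was in the actin crosslinker gene Actn1 (0.83, SE 0.07; edgeR adjusted p = 1.03e-05). Of 10 tested genes of the TGF-beta and YAP list, 3 rose and 3 fell, with the matrix adaptor gene Tgfbi at 22.5 CPM with LPS and 135 CPM in vehicle (−2.59, SE 0.11). Of 12 tested macrophage markers 4 rose and 5 fell with LPS. Macrophages express several genes of these lists too, and the cell source of a transcript was not measured. In SGA360+LPS against LPS, 0 genes of these 7 companion lists were called.

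Endothelial markers summed to 64.1 and 70.6 CPM with SGA360+LPS, 53.3 and 63.5 CPM with LPS, and 76.0 and 89.2 CPM in vehicle. Most of this was Vwf, encoding von Willebrand factor, which fell with LPS by 0.51 (SE 0.13; edgeR adjusted p = 0.0114), while Cdh5, encoding VE-cadherin, had 0 to 6 counts per library and 5 of 10 markers were at 0, of which Pecam1, Tek, Emcn and Eng have several transcript rows. Smooth muscle and pericyte markers summed to 243 and 219.0 CPM with SGA360+LPS, 227 and 218 CPM with LPS, and 175 and 176 CPM in vehicle, with Myh11 at 0 and several rows. Des, encoding desmin, rose with LPS by 0.53 (SE 0.11; edgeR adjusted p = 0.00485). B cell markers summed to 29.0 to 33.4 CPM and mast cell markers to 75.2 to 90.2 CPM over the 6 libraries. The part of these cells in the levels of the members was not tested.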

How the data were processed

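The submitters' processing notes name the mm10 build, HTSeq 0.5.4p3 and TopHat2 2.0.13, without their roles. The authors deposited whole-number read counts for 34751 transcript rows, each with a symbol, a RefSeq transcript, a position and an exon length. Strandedness and annotation were not given in the sources used here. All sample columns matched a label. Positions are given as start plus 1, which equalled the GENCODE M21 start more often (37.7% of matched genes with 1 row) than the start itself (3.29%).

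Rows were summed per symbol. In R 4.3.3, edgeR 4.0.16 removed low genes (filterByExpr, minimum count 10), applied TMM factors and fitted all 6 libraries in a quasi-likelihood model (glmQLFit, glmQLFTest) with 3 groups, which leaves 3 residual degrees of freedom. The Benjamini-Hochberg adjustment ran over the 9389 genes tested. The SE of a log2 fold change is its size over the root of F. The scripts were tested on simulated data. CPM use TMM-scaled library sizes, and CPM per kb use the deposited exon length.

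The members, lists and rule for named genes were chosen with earlier results of these data known. Values per library are given for called members and the 2 most abundant of each role. From each companion list up to 4 called genes with a mean of at least 1 CPM could be named. The values of 1 such gene are not reported here. Krt18, Krt19, Msln, Igfbp5, Lum, Dcn, Fbln1 and the counts of low genes are given beside these, as are Has1 counts and marker genes of other cells. Promoters of Col4a1 and Col4a2 are not printed, since each window lies within the annotated span of the other gene. The planned comparison of keratin proteins was not made.

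Replicates did not agree within sampling noise (mean chi-square per gene 4.23 for SGA360+LPS, 6.335 for LPS and 44.4 for vehicle), so none was counted as a duplicate. Alternatives were RLE size factors, no filter, a mean of at least 5 CPM, DESeq2 1.42.0, limma-voom (limma 3.58.1), only the 2 groups compared, the replicate number as a block, the highest row per symbol, Rn45s left out, a threshold of 0.01 and each library left out.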

Additional observations from a re-analysis of the deposited data

How the results depend on the processing

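For LPS against vehicle the number of members called was 9 of 24 tested, and for SGA360+LPS against vehicle it was 10 of 24. Both counts moved with some libraries left out. Those fits tested 26 or 27 members, so their counts are not out of the same 24. At an adjusted p under 0.01 the second count was 6. For SGA360+LPS against LPS it was 0 under every alternative run, while over all genes it was 7, with 17 without the filter, 12 with only these 2 groups, 4 at an adjusted p under 0.01 and 0 to 16 with 1 library left out. Over all genes, LPS against vehicle gave 3413 calls (2091 to 5494 with 1 library left out, 2216 at 0.01) and SGA360+LPS against vehicle 3107 (1831 to 5315, 2050 at 0.01). The summed mesothelial log2 ratio to vehicle was −0.51 with SGA360+LPS and −0.52 with LPS. It was −0.62 and −0.64 on total counts, and −0.34 and −0.33 without Lrrn4. Among single members, Krt7 with LPS was lost in DESeq2 (adjusted p = 0.0548), and Upk3b with SGA360+LPS was lost in DESeq2 (0.0991), without the filter (0.0565) and with only 2 groups (0.0558), while Wt1 with SGA360+LPS was gained with a mean of at least 5 CPM (0.0352).

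Some log2 fold changes over vehicle that were not called changed sign when 1 library was left out. With LPS, Col1a1 ranged from −0.18 to 0.14, Dcn from −1.13 to 0.51, Krt19 from −0.30 to 0.13 and Thy1 from −1.22 to 0.41. With SGA360+LPS, Col1a1 ranged from −0.0071 to 0.32, Col1a2 from −0.089 to 0.065, Col5a2 from −0.050 to 0.067, Dcn from −1.03 to 0.60, Fbln1 from −0.53 to 0.11, Krt19 from −0.062 to 0.24 and Thy1 from −1.56 to 0.49. Col5a2 was at 0.018 without the filter. The cause was not tested. Thy1 had 10 to 52 counts per library and Dcn 32 to 93, and the part of such low counts in these changes was not tested.

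The labels do not say that replicate numbers pair the samples, and they were not treated as pairs, since not every correlation passed 0.1: deviations of same-numbered libraries correlated at 0.163 for SGA360+LPS and LPS, 0.0145 for SGA360+LPS and vehicle, and −0.0066 for LPS and vehicle over 9389 genes. With the replicate number as a block, 9 members were called for LPS against vehicle, 0 for SGA360+LPS against LPS and 10 for SGA360+LPS against vehicle, the same genes as without it.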
